A study of Homo sapiens with 6 samples.

Results

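The Krüppel-like factors (KLF) are a family of transcription factors, and 10 of its genes, KLF2, KLF3, KLF4, KLF5, KLF6, KLF9, KLF10, KLF11, KLF13 and KLF15, were followed in HCT116 cells that received the microRNA miR-8485. They were taken by gene symbol from the 18 KLF genes among the 58735 genes of the expression table. The set was chosen from results of this same contrast, with the rise of KLF15 and the spread of the growth-linked and differentiation-linked paralogs in view. The changes of the 10 members are therefore given as a description, and no p-value is printed for them. Where a member is said below to be called or to pass a threshold, this places it in the fit over all genes. It is not a test of the member. The data were 6 RNA-seq libraries of HCT116, an epithelial line from a human colorectal carcinoma whose genotype the labels give as WT. In 3 libraries the cells carried a control transfection (CTR), whose sequence and dose are not given in the sources used here. In the other 3 the cells had been transfected with 50 nM miR-8485 mimic, a synthetic RNA, and were collected after 48 h. The sequence given for the mimic was not compared with that of the mature miRNA. All 6 libraries came from 1 cell line and 1 time point, and the methods describe the libraries of each group as independent biological replicates.

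KLF proteins carry 3 zinc fingers at the carboxy terminus and bind GC boxes and CACCC elements, the sites that they share with the related SP factors. Their amino-terminal parts differ and recruit different partners. KLF2, KLF4, KLF5 and KLF6 act mainly as activators, KLF3 is a repressor that works through CtBP, and KLF9, KLF10, KLF11 and KLF13 can bind the corepressor SIN3A. In the intestinal epithelium KLF5 is known as a factor of the proliferating crypt, whereas KLF4 marks differentiating cells and restrains the cell cycle. KLF2, KLF6, KLF9, KLF10, KLF11 and KLF15 have also been linked to growth arrest or differentiation in various tissues.

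The mimic is shown first, since its seed defines the site searched for in the KLF transcripts. Its 17 bases are written 5′ to 3′ with the seed, bases 2 to 8, in capitals.
miR-8485 mimic: cACACACAcacacguau
The complement of this seed is TGTGTGT. It occurred in the 3′ UTR of 4 of the 10 members in the GENCODE release 44 annotation of hg38, namely 3 times in KLF11, 3 times in KLF6, 2 times in KLF3 and 2 times in KLF13, counting overlapping copies. The other 6 members, KLF2, KLF4, KLF5, KLF9, KLF10 and KLF15, held none. Shorter or shifted matches to the seed were not counted. The longest run of alternating T and G was 7 bases in KLF5 and 6 bases in KLF2, KLF9 and KLF10. Among the 10673 tested genes with a 3′ UTR, 30.2% held at least 1 copy in their longest 3′ UTR. For each of the 4 members, 1 site is printed with its surroundings, with the run of TG repeats that holds it in capitals, so that its length can be compared.
KLF3, chr4:38699473-38699497, plus strand: accagtttaTGTGTGTtccaatcca
KLF6, chr10:3779126-3779150, minus strand: tgaatgtttTGTGTGTaaggagtat
KLF11, chr2:10054098-10054122, plus strand: gacacaaaTGTGTGTGTtattcaga
KLF13, chr15:31374207-31374231, plus strand: tcttaccacTGTGTGTcagctggga
The printed sites of KLF3, KLF6 and KLF13 are single copies of 7 bases, and that of KLF11 is a run of 9 bases that holds 2 overlapping copies. A match of these letters is a description of the transcript and was not tested as a binding site.

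The promoters of KLF2 and KLF15 are shown because these genes had the lowest and the highest fold change of the members. The windows span 300 bases around the gene start in RefSeq (GRCh38.p14), most of them upstream, and capitals mark the GC box GGGCGG on either strand.
KLF2, chr19:16324576-16324875, plus strand: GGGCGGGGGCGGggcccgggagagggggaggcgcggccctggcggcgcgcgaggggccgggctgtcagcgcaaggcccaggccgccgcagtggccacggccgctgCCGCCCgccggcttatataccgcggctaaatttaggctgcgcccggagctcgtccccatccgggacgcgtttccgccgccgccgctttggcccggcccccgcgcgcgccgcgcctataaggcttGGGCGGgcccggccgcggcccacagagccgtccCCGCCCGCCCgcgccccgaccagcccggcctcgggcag
KLF15, chr3:126357359-126357658, minus strand: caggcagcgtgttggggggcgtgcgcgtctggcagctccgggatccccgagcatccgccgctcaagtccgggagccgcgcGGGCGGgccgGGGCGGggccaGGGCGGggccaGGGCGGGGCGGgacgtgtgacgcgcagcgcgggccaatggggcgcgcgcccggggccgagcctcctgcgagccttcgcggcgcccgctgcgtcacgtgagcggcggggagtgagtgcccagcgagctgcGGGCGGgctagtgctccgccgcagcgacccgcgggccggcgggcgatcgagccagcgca
Both windows held 6 GC boxes, counted on both strands with overlaps, and no CACCC element, and their GC content was 80.7% in KLF2 and 80.3% in KLF15. RefSeq promoter entries were used for 8 of the 10 members, which gave 10 windows, and 8 of these windows held a GC box and 4 a CACCC element. Over all 35116 promoters of the same length, 45.0% held a GC box and 59.9% a CACCC element. The KLF9 window held no GC box and had a GC content of 32.7%, against a median of 58.7% over all promoters.

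Levels are given as FPKM, the fragments of a gene scaled to its length and to the fragments of the library. The length is the one listed with the data, from 2018 bases for KLF2 to 9409 for KLF13 among the members. Comparisons of levels between different genes depend on these lengths. The libraries held 17473874 to 17888110 fragments on listed genes in CTR and 17710376 to 18480047 in miR-8485. The chi-square per gene between 2 libraries lies near 1 under counting error alone. It was 2.75 to 10.5 within the groups and 61.0 to 70.3 between them, so no library was a copy of another. CTR replicate 1 stood apart within its group, at 10.5 and 8.46 from CTR replicates 2 and 3, while the other within-group pairs lay at 2.75 to 3.87. The epithelial markers EPCAM and CDH1 were not called, with log2 fold changes of -0.05 and -0.05. The summed level of all 6 epithelial markers was 2613 to 2838 FPKM in CTR and 1751 to 1838 FPKM in miR-8485, where KRT8, KRT18 and KRT19 were lower and CDX2 was higher. Of 10 markers of fibroblasts, leukocytes and endothelium, 9 stayed at or below 0.647 FPKM in every library, with DCN and CD3E listed at 0, and the remaining one, COL1A1, lay at 4.05 to 4.38 FPKM in CTR and 6.27 to 6.402 FPKM in miR-8485. These are bulk libraries, in which fewer cells of a kind and less RNA per cell cannot be told apart.

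Fold changes are miR-8485 minus CTR on the scale of log2(FPKM + 0.1), with the standard error (SE) of limma, and a gene is said to be called when its Benjamini-Hochberg adjusted p over all 12349 genes with a mean of at least 1 FPKM was under 0.05. Of the 10 members, 1 (KLF15) was called higher, 6 (KLF2, KLF3, KLF4, KLF6, KLF10 and KLF11) were called lower and 3 (KLF5, KLF9 and KLF13) were not called. Over all tested genes, 29.1% were called higher and 30.5% lower. The same 6 members had every miR-8485 library below every CTR library, which held for 34% of the tested genes, and KLF15 alone had every miR-8485 library above every CTR library, which held for 32.5%. The median log2 fold change of the members was -0.54, against -0.0041 over all tested genes. Since this contrast chose the members, nothing is read from these counts.

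**Figure D1:**
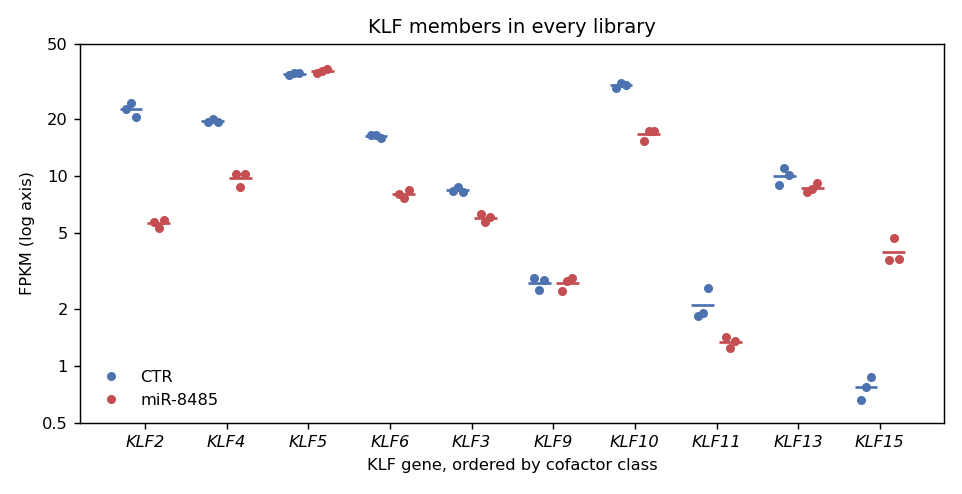
Level of the 10 KLF members in each of the 6 libraries, in FPKM on a log axis, with genes on the horizontal axis ordered by cofactor class; points are libraries and bars are group means (n = 3 per group). KLF2 fell from 20.6 to 24.5 FPKM in CTR to 5.37 to 5.88 FPKM in miR-8485, KLF15 rose from 0.662 to 0.873 to 3.60 to 4.72 FPKM, and the groups overlapped for KLF5, KLF9 and KLF13.

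Among the members that act mainly as activators, 3 fell and KLF5 did not. KLF2 (ENSG00000127528, chr19:16324817-16327874, plus strand), a factor of quiescence in endothelium and lymphocytes, stood at 22.6, 24.5 and 20.6 FPKM in CTR replicates 1 to 3 and at 5.77, 5.37 and 5.88 FPKM in miR-8485 replicates 1 to 3. All miR-8485 libraries lay far below all CTR libraries. The mean went from 22.6 ± 1.98 to 5.67 ± 0.268 FPKM (SD, n = 3 in each group), which is 3.98-fold lower, and the log2 fold change was -1.97 (SE 0.07). This was the lowest value among the members, and 0.648% of all tested genes had a lower one. The processed pseudogene KLF2P1, with which fragments could have been shared, held 9, 5 and 2 fragments in CTR and 8, 23 and 20 in miR-8485, against 752 to 896 and 196 to 226 for KLF2.

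KLF4 (ENSG00000136826, chr9:107484852-107490482, minus strand), known from the differentiated cells of the colonic surface, measured 19.4, 20.05 and 19.4 FPKM in the CTR libraries and 10.2, 8.79 and 10.3 FPKM in the miR-8485 libraries. The groups did not overlap, and the mean was 2.003-fold lower in miR-8485, from 19.6 ± 0.373 to 9.79 ± 0.867 FPKM (SD, n = 3), with a log2 fold change of -0.999 (SE 0.07). KLF6 (ENSG00000067082, chr10:3775996-3785281, minus strand), which has been described as an activator of the cell cycle inhibitor CDKN1A, measured 16.5, 16.6 and 15.9 FPKM in CTR and 8.03, 7.72 and 8.49 FPKM in miR-8485. It changed by nearly as much as KLF4, with a log2 fold change of -1.01 (SE 0.05) and means of 16.3 ± 0.381 and 8.08 ± 0.390 FPKM (SD, n = 3). KLF6 holds 3 seed sites in its 3′ UTR and KLF4 holds none.

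KLF5 (ENSG00000102554, chr13:73054976-73077542, plus strand), the growth-linked factor of the crypt, was the highest member in both groups. It stood at 34.3, 35.1 and 35.3 FPKM in CTR and at 35.1, 36.0 and 36.9 FPKM in miR-8485. The ranges overlapped, and the log2 fold change was 0.04, about the size of its SE of 0.04. Each library held 2407 to 2734 KLF5 fragments, the deepest coverage among the members. The sign of the KLF5 value was not stable to scaling, since it was -0.07 after rescaling to TPM, where the median of all tested genes moved to -0.12. Relative to that median KLF5 stood at 0.05 with both scalings.

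KLF3 (ENSG00000109787, chr4:38664196-38701042, plus strand), the repressor that binds CtBP, was lower by a smaller amount. It measured 8.33, 8.78 and 8.24 FPKM in CTR and 6.30, 5.73 and 6.13 FPKM in miR-8485, with no overlap. The log2 fold change was -0.47 (SE 0.06), and the means were 8.45 ± 0.289 and 6.06 ± 0.292 FPKM (SD, n = 3). The antisense gene KLF3-AS1, which overlaps KLF3, held 10 to 20 fragments per library against 653 to 1000 for KLF3, and whether the counting used strand is not given in the sources used here.

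The members that bind SIN3A split into KLF10 and KLF11, which fell, and KLF9 and KLF13, which were not called. KLF10 and KLF11 are known as early response genes of TGF-beta signaling that restrain growth. KLF10 (ENSG00000155090, chr8:102648779-102655902, minus strand) was the second highest member, at 29.3, 31.0 and 30.5 FPKM in CTR and 15.5, 17.3 and 17.3 FPKM in miR-8485. The groups lay far apart, with a log2 fold change of -0.86 (SE 0.06) and means of 30.2 ± 0.859 and 16.7 ± 1.04 FPKM (SD, n = 3). KLF11 (ENSG00000172059, chr2:10042849-10054836, plus strand) was expressed at a low level, 1.84, 1.89 and 2.59 FPKM in CTR and 1.42, 1.24 and 1.35 FPKM in miR-8485. CTR replicate 3 stood above the other CTR libraries, and the miR-8485 libraries lay below all 3. The log2 fold change was -0.60, with the largest standard error among the members (0.16), and rested on 152 to 215 fragments per CTR library and 103 to 118 per miR-8485 library.

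KLF9 (ENSG00000119138, chr9:70384597-70414624, minus strand), a factor induced by thyroid hormone and glucocorticoids, measured 2.90, 2.50 and 2.85 FPKM in CTR and 2.47, 2.79 and 2.90 FPKM in miR-8485. The libraries of the groups were interleaved, and the log2 fold change was -0.02 (SE 0.10), a value whose sign turned without CTR replicate 1 or 3 or miR-8485 replicate 1, to between 0.01 and 0.05. KLF13 (ENSG00000169926, chr15:31326855-31435665, plus strand), known as a regulator of the chemokine RANTES in T cells, measured 9.04, 11.0 and 10.2 FPKM in CTR and 8.30, 8.55 and 9.20 FPKM in miR-8485. CTR replicate 1 lay within the miR-8485 range, and the log2 fold change was -0.21 (SE 0.08). Without CTR replicate 1 the KLF13 value was -0.28 and passed the threshold.

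KLF15 (ENSG00000163884, chr3:126342635-126357442, minus strand) was the member that rose. It is known as a metabolic regulator of liver, muscle, fat and kidney that responds to fasting and glucocorticoids. It measured 0.662, 0.776 and 0.873 FPKM in CTR and 3.60, 4.72 and 3.65 FPKM in miR-8485. Every miR-8485 library stood well above the CTR libraries, with miR-8485 replicate 2 the highest. The mean rose 5.18-fold, from 0.771 ± 0.106 to 3.99 ± 0.632 FPKM (SD, n = 3), and the log2 fold change was 2.23 (SE 0.15). Of all tested genes, 99.8% had a lower fold change, but KLF15 passed the filter on the mean only through the miR-8485 libraries. The values rested on 34, 40 and 45 fragments in CTR and 184, 243 and 198 fragments in miR-8485, and the control level was at the 1.33 percentile of the tested genes, so the size of the rise depended on the pseudocount and was 1.49 with a pseudocount of 1.

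The 3 tested protein-coding genes whose pattern over the 6 libraries was nearest to that of KLF15 were KRTAP3-1, a keratin-associated protein, GSTA4, a glutathione transferase, and TSPAN8, a tetraspanin of epithelial membranes. Their root-mean-square distance from KLF15, on the log2 scale after subtraction of each gene's CTR mean, was 0.173 for KRTAP3-1, 0.189 for GSTA4 and 0.195 for TSPAN8. GSTA4 also resembled KLF15 in level, with 0.637 to 0.965 FPKM in CTR and 3.45 to 3.94 FPKM in miR-8485. Like KLF15, it passed the filter on the mean only through the miR-8485 libraries. TSPAN8 stood higher, with 2.09 to 2.46 FPKM in CTR and 9.70 to 11.4 FPKM in miR-8485.

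The order of the levels changed with the mimic. In CTR it ran from KLF5 through KLF10, KLF2, KLF4, KLF6, KLF13, KLF3, KLF9 and KLF11 to KLF15, and the libraries of neighboring genes overlapped only for KLF9 and KLF11. In miR-8485 it ran KLF5, KLF10, KLF4, KLF13, KLF6, KLF3, KLF2, KLF15, KLF9 and KLF11, with overlaps between KLF4 and KLF13, between KLF13 and KLF6 and between KLF3 and KLF2. KLF2 moved from rank 3 to rank 7 and KLF15 from rank 10 to rank 8, above KLF9 and KLF11.

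The summed level of the 18 listed KLF genes was 171.6, 176.3 and 170.6 FPKM in CTR and 124.6, 125.0 and 128.9 FPKM in miR-8485, or 172.8 ± 3.04 against 126.2 ± 2.37 FPKM (SD, n = 3). KLF5 made up 20.2 ± 0.42% of this sum in CTR and 28.5 ± 0.33% in miR-8485, so its share grew while its level changed by about the size of its error. The share of KLF2 went from 13.1 ± 0.93% to 4.50 ± 0.18%. KLF4 went from 11.4% to 7.76%, KLF6 from 9.46% to 6.403% and KLF10 from 17.5% to 13.2%. KLF15 went from 0.446 ± 0.063% to 3.17 ± 0.53%, which remained a small part of the pool. The 10 members together gave 85.6% of the sum in CTR and 78.4% in miR-8485.

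**Figure D2:**
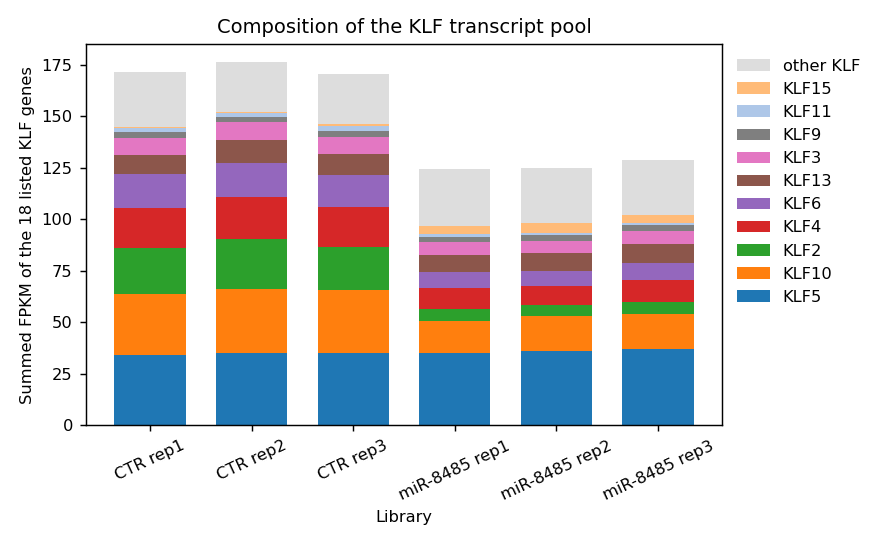
Summed FPKM of the 18 listed KLF genes in each of the 6 libraries, as stacked bars from 0, with 1 color per member and the 8 other KLF genes in gray. The KLF5 block at the base keeps its height while the total goes from 172.8 FPKM on average in CTR to 126.2 FPKM in miR-8485.

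Ratios within a library do not depend on its scaling. KLF4 stood at 0.562 ± 0.011 of KLF5 in CTR and 0.272 ± 0.025 in miR-8485 (SD, n = 3), and KLF2 at 0.648 ± 0.059 and 0.158 ± 0.0077 of KLF5. Both ratios lay lower in every miR-8485 library than in any CTR library. Since KLF5 was not called, they restate the falls of KLF4 and KLF2. These members were chosen from this contrast, so nothing further is read from the ratios. KLF15 moved the other way and reached 11.1 ± 1.76% of the KLF5 level, from 2.21 ± 0.27%. Against KLF9, which shares its link to glucocorticoids, KLF15 went from 0.282 ± 0.046 to 1.47 ± 0.22, so that it was the lower of the pair in CTR and the higher in miR-8485.

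Grouped by their known link, KLF5 was the 1 growth-linked member and was not called. Of the 7 members linked to differentiation or arrest, 5 (KLF2, KLF4, KLF6, KLF10 and KLF11) were lower, KLF9 was not called and KLF15 was higher. Over all tested genes, 30.5% were called lower and 29.1% higher, and nothing is read from the counts of these classes. KLF3 and KLF13 were placed in neither class. The classes were written from general knowledge of the family with these results known, and no test compared them.

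Of the 8 other KLF genes, 2 passed the filter on the mean. KLF16, which binds SIN3A like KLF9, measured 23.9, 21.6 and 21.7 FPKM in CTR and 26.04, 24.9 and 24.9 FPKM in miR-8485, with a log2 fold change of 0.18 (SE 0.05, adjusted p = 0.0237 by limma with Benjamini-Hochberg adjustment). This small rise was no longer called after rescaling to TPM (0.06, adjusted p = 0.461 by limma), and not without CTR replicate 2 or 3 or miR-8485 replicate 1 or 3 (adjusted p = 0.0521 to 0.0778 by limma). KLF12, which binds CtBP like KLF3, was near 1 FPKM in all libraries and was not called (log2 fold change -0.20, adjusted p = 0.378 by limma). KLF7, the nearest relative of KLF6, lay below the filter at 0.904, 0.943 and 0.811 FPKM in CTR and 0.517, 0.388 and 0.5725 FPKM in miR-8485. Its libraries did not overlap, but the log2 fold change of -0.75 (SE 0.22) did not pass in the fit of all 31768 genes above 0 (adjusted p = 0.0592 by limma), where 11.3% of the genes were called lower. KLF7 has a 3′ UTR of 7076 bases with 7 copies of the seed site, the most of any KLF gene examined. KLF12 held 2 copies, and KLF16, which was called higher, and KLF8 held 1 each. KLF1, KLF8, KLF14 and KLF17 did not exceed 0.622 FPKM in any library, and KLF18 was listed at 0.

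The SP factors, which recognize the same GC boxes, were lower for 4 of 6 tested genes and higher for none, with a median of -0.46. The shares over all tested genes were 30.5% lower and 29.1% higher, and no test compared this list or those below with them. SP1, the ubiquitous activator, measured 13.1, 14.2 and 14.1 FPKM in CTR and 8.996, 9.55 and 10.2 FPKM in miR-8485 (log2 fold change -0.53, SE 0.06, adjusted p = 2.8e-04 by limma). SP2 and SP3 changed by -0.52 and -0.41 (adjusted p = 0.0080 and 4.8e-04 by limma). SP6, a factor of epithelial development, fell the most of the SP genes, by 0.99 on the log2 scale (SE 0.13, adjusted p = 5.0e-04 by limma). SP4 and SP5 had values of 0.24 and 0.24 with standard errors of 0.13 and 0.23 and did not pass.

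**Figure D3:**
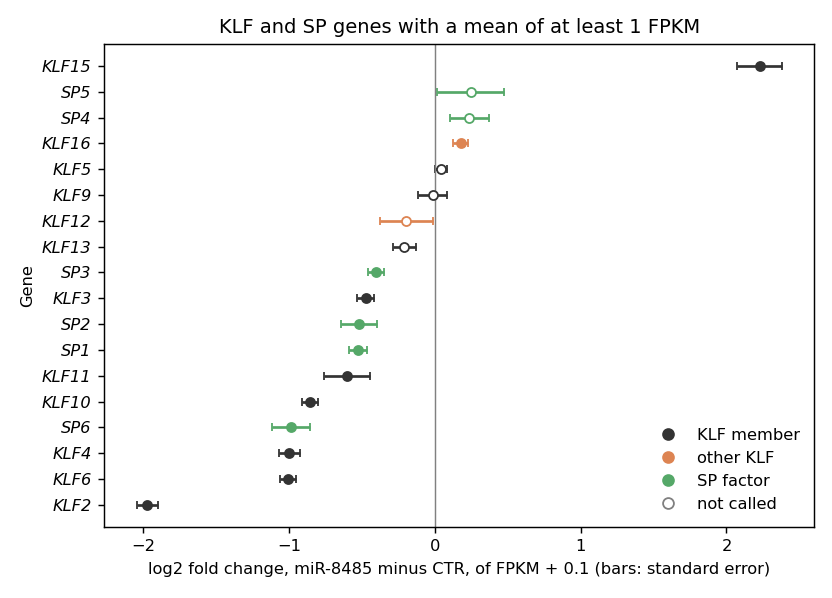
Log2 fold change (miR-8485 minus CTR, of FPKM + 0.1) of the 18 KLF and SP genes with a mean of at least 1 FPKM, ordered by value; bars are standard errors of limma and open points were not called. KLF15 stands alone at 2.23, KLF5 and KLF9 lie at 0.04 and -0.02, and KLF2 is lowest at -1.97.

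The partners of the KLF proteins were taken from a list of 13 corepressors and coactivators, all tested, with a median of -0.16. Of these, 2 were higher and 6 lower, beside 29.1% and 30.5% of all tested genes. The partners named with the SIN3A-binding members moved apart. SIN3A, the scaffold of the histone deacetylase complex, measured 5.96, 6.06 and 6.23 FPKM in CTR and 2.77, 3.12 and 3.55 FPKM in miR-8485, with a log2 fold change of -0.94 (SE 0.09, adjusted p = 1.2e-04 by limma), while its paralog SIN3B rose by 0.24 (adjusted p = 0.0170 by limma), a call lost after rescaling to TPM (adjusted p = 0.117 by limma) and without miR-8485 replicate 1 or 3 (adjusted p = 0.0522 and 0.0576 by limma). Among the partners of KLF3, CTBP2 fell by 0.23 in log2 terms (adjusted p = 0.0048 by limma) and CTBP1 had a value of -0.03 and was not called. The acetyltransferase EP300, a coactivator of KLF4 and KLF5, went from 3.33, 3.96 and 4.57 FPKM to 1.67, 1.83 and 1.74 FPKM (log2 fold change -1.12, SE 0.12, adjusted p = 1.9e-04 by limma). Its paralog CREBBP fell by 0.56 and KAT2B by 0.50, whereas KAT2A rose by 0.54 (adjusted p = 8.8e-04, 0.0124 and 1.4e-04 by limma).

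Upstream of KLF2 and KLF4 lies the kinase pair MEK5 and ERK5, which acts through MEF2 factors, and upstream of KLF10 and KLF11 lies TGF-beta signaling. Of 11 genes of these inputs and the glucocorticoid receptor, 3 were higher and 4 lower (29.1% and 30.5% over all tested genes), with a median of -0.24. MEF2A and MEF2D fell by 0.87 and 0.71 on the log2 scale, and MEF2C rose by 0.61 (adjusted p = 2.7e-04, 1.8e-04 and 7.3e-04 by limma). The transcript of MEK5, MAP2K5, was higher by 0.36 (adjusted p = 0.0189 by limma), a call lost after rescaling to TPM and without CTR replicate 3 or miR-8485 replicate 2 or 3 (adjusted p = 0.0508 to 0.0916 by limma). That of ERK5, MAPK7, was not called at -0.27 (adjusted p = 0.0798 by limma). SMAD3 and SMAD4, which carry the TGF-beta signal to the genome, fell by 0.60 and 0.59, and the receptor TGFBR1 rose by 0.29 (adjusted p = 2.6e-04, 2.2e-04 and 0.0028 by limma). TGFBR2 and SMAD2 had values of -0.24 and -0.10 and were not called. Without CTR replicate 1 both MAPK7 and TGFBR2 passed the threshold, as did MAPK7 without miR-8485 replicate 2 and TGFBR2 without miR-8485 replicate 3 (adjusted p = 0.0147 to 0.0359 by limma), and both passed with voom on recovered fragments. The glucocorticoid receptor NR3C1, at 1.03 to 1.57 FPKM, was not called at -0.21 (adjusted p = 0.300 by limma).

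Of the 7 listed ubiquitin ligases that act on KLF proteins, 1 was higher and 3 were lower (29.1% and 30.5% over all tested genes). Their median was -0.17. WWP1, which marks KLF2 and KLF5 for degradation, had a log2 fold change of -0.17 and missed the threshold (adjusted p = 0.0501 by limma), which it passed without miR-8485 replicate 3 (adjusted p = 0.0231 by limma) and with voom. FBXW7, which acts on KLF5, had a value of -0.02 with overlapping libraries. SMURF2 fell by 0.77, BTRC by 0.30 and SMURF1 by 0.19 on the log2 scale (adjusted p = 1.7e-05, 0.0034 and 0.0372 by limma), and the SMURF1 call was lost when any library but CTR replicate 1 was left out (adjusted p = 0.0514 to 0.112 by limma) and with quantile normalization. FBXO32 rose by 0.97 from 0.845 to 0.968 FPKM in CTR to 1.71 to 1.95 FPKM in miR-8485 (adjusted p = 9.1e-04 by limma). VHL had a value of 0.12 and was not called (adjusted p = 0.0517 by limma), but it was called higher with median-of-ratios scaling, quantile normalization and voom. FBXO32 passed the filter on the mean only through the miR-8485 libraries.

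KLF9 and KLF15 are known glucocorticoid-responsive genes, so other genes of that response were listed. Of 8, 7 were tested, and 2 were higher and 3 lower, beside 29.1% and 30.5% of all tested genes. Their median was -0.12, and ZBTB16 was listed at 0. FKBP5 and TSC22D3 were not called, with values of -0.00 and -0.12 (adjusted p = 0.982 and 0.557 by limma) with overlapping libraries. The clock gene PER1 rose by 0.54 and the phosphatase DUSP1 by 0.39 (adjusted p = 1.2e-04 and 0.0264 by limma), the latter a call lost after rescaling to TPM and without CTR replicate 1 or 2 or miR-8485 replicate 1 or 2 (adjusted p = 0.0565 to 0.0803 by limma). The kinase SGK1 went from 2.78, 2.82 and 2.84 FPKM to 0.630, 0.570 and 0.646 FPKM, a log2 fold change of -2.03 (SE 0.13, adjusted p = 1.9e-05 by limma). SGK1 passed the filter on the mean only through the CTR libraries. The metallothionein MT2A and the inhibitor NFKBIA fell by 1.29 and 0.51 (adjusted p = 8.1e-05 and 0.0013 by limma).

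Of 11 cell cycle and growth genes known as targets of KLF4, KLF5 or KLF6, 2 were higher and 8 lower, with a median of -0.55. The shares over all tested genes were 29.1% and 30.5%. CDKN1A, which KLF4 and KLF6 are known to activate, measured 255, 248 and 273 FPKM in CTR and 164, 156 and 163 FPKM in miR-8485 (log2 fold change -0.68, SE 0.05, adjusted p = 2.7e-05 by limma). The inhibitors CDKN1B and CDKN1C also fell, by 0.55 and 0.53 on the log2 scale (adjusted p = 2.9e-04 and 0.0022 by limma). CCND1 (cyclin D1) went from 209, 216 and 223 FPKM to 25.1, 21.8 and 24.3 FPKM, a log2 fold change of -3.18 (SE 0.06, adjusted p = 4.1e-07 by limma). CCNB1 fell by 0.88, CDK1 by 1.08 and CCNE1 by 0.43, and the growth factor PDGFA fell by 1.70 (adjusted p = 8.9e-06, 1.4e-05, 8.0e-04 and 2.7e-05 by limma). ODC1, the rate-limiting enzyme of polyamine synthesis, rose by 0.77 and MYC by 0.27 (adjusted p = 9.9e-06 and 0.0070 by limma), the MYC call being lost with quantile normalization, and BIRC5 had a value of -0.09 and was not called. Inhibitors of the cell cycle and cyclins were thus both among the genes that fell.

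Of 7 intestinal differentiation and stem cell genes, 2 were tested and both were higher, of which KRT20 passed the filter on the mean only through the miR-8485 libraries, so that nothing is read from this count. CDX2, the intestinal homeobox factor that can activate KLF4, measured 16.2, 15.5 and 16.4 FPKM in CTR and 29.4, 27.0 and 28.3 FPKM in miR-8485 (log2 fold change 0.81, SE 0.05, adjusted p = 1.4e-05 by limma). The surface keratin KRT20 rose from 0.841, 0.839 and 0.509 FPKM to 2.56, 2.19 and 1.31 FPKM (log2 fold change 1.33, SE 0.29, adjusted p = 0.0058 by limma). ALPI, MUC2, VIL1, LGR5 and ASCL2 did not exceed 0.0639 FPKM in any library.

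Of 8 metabolic and other targets known for KLF15, 3 were tested, 1 was higher and 2 were lower (29.1% and 30.5% over all tested genes). BCAT2, an enzyme of branched-chain amino acid breakdown that KLF15 is known to activate, measured 14.5, 12.9 and 12.9 FPKM in CTR and 20.4, 19.7 and 18.3 FPKM in miR-8485 (log2 fold change 0.54, SE 0.07, adjusted p = 3.8e-04 by limma). CCN2, a matrix factor that KLF15 is known to repress, went from 1.94, 2.43 and 2.95 FPKM to 0.881, 0.969 and 1.12 FPKM (log2 fold change -1.21, SE 0.18, adjusted p = 8.8e-04 by limma). CCN2 passed the filter on the mean only through the CTR libraries. ADM, the vasodilator peptide adrenomedullin, fell by 1.08 in log2 terms (adjusted p = 8.8e-06 by limma). SLC2A4, the insulin-dependent glucose transporter, lay below the filter at 0.588 to 0.874 FPKM in CTR and 1.197 to 1.26 FPKM in miR-8485 and did not pass in the fit of all genes above 0 (adjusted p = 0.0581 by limma). BCKDHA, PRODH, GPT and TAT did not exceed 0.843 FPKM.

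**Figure D4:**
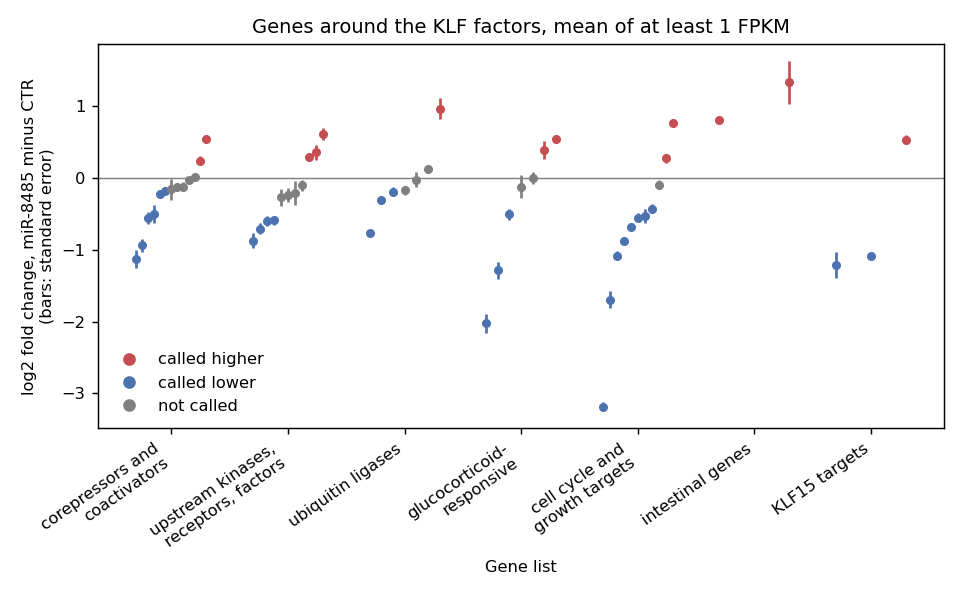
Log2 fold change (miR-8485 minus CTR) of the tested genes of 7 lists around the KLF factors, ordered by value within each list; points are genes, bars are standard errors of limma, and color marks genes called higher, lower or not called. The lowest point is CCND1 at -3.18 and the highest is KRT20 at 1.33, and every list of more than 3 genes holds genes called in both directions.

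Across all 82 other family and pathway genes, 62 were tested, 14 were called higher, 30 lower and 18 neither. These lists were assembled with earlier results of these data known, and over all tested genes 29.1% were called higher and 30.5% lower. When the values were rescaled to TPM, the higher calls were 35.6% of all calls in place of 48.8%, and all 7 called members kept their direction and their call, while KLF13, HDAC2, HDAC3, MAPK7, TGFBR2, WWP1 and BIRC5 were then also called lower. Relative to the median of all genes, KLF2 then stood at -1.98, KLF15 at 2.32 and KLF13 at -0.21. Setting the seed sites beside the changes, KLF3, KLF6 and KLF11 had a site and were lower, and KLF13 had a site and was not called. Of the members without a site, KLF2, KLF4 and KLF10 were lower, KLF5 and KLF9 were not called and KLF15 was higher. Outside the members, KLF16 had a site and was called higher, and KLF12 had a site and was not called. KLF7 and KLF8 had a site and lay below the filter on the mean. The part of the seed sites in these changes was not tested.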

How the data were processed

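RNA-seq data of HCT116 cells were analyzed, 3 CTR and 3 miR-8485 libraries grouped by their titles, and 0 columns were left without a sample. The authors trimmed reads with fastp 0.23.1, mapped them to hg38 with HISAT2 2.0.5, counted fragments per gene with featureCounts 1.5.0-p3, tested counts with DESeq2 and deposited FPKM values, which were used here. In each library 100% of the FPKM values were whole multiples of 1 fragment (tolerance 0.01 fragment), so fragments were recovered, 17473874 to 18480047 per library on listed genes. Of 58735 genes, 26967 were at 0 in every library.

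Because FPKM are not counts, log2(FPKM + 0.1) was tested with limma 3.58.1 (R 4.3.3, variance trend, two-sided, Benjamini-Hochberg adjustment) over the 12349 genes with a mean of at least 1 FPKM. For genes under this minimum, the fit included all 31768 genes above 0. Scripts were tested on simulated data. Other steps used Python 3.11.15, numpy 2.4.6, pandas 2.3.3 and matplotlib 3.10.9.

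The members and lists were chosen with earlier results of these data known. Named were the 10 members, genes of fixed lists written from general knowledge (other KLF, SP factors, cofactors, upstream genes, ubiquitin ligases, glucocorticoid-responsive genes, growth targets, intestinal genes and KLF15 targets), and the 3 tested protein-coding genes nearest to KLF15 over the 6 libraries. CCN2 was matched by gene ID, since the table uses an older symbol. Seed sites were counted in the longest 3′ UTR of each gene (GENCODE release 44). The alternatives were pseudocounts of 1 and 0.01, no filter, a filter at 5 FPKM, quantile normalization, median-of-ratios scaling, TPM, no variance trend, voom on recovered fragments, a replicate block, each library left out in turn and the canonical 3′ UTR.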

Additional observations from a re-analysis of the deposited data

How the results depend on the processing

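Of 157 values of the members over 16 alternatives, 148 kept the direction and the side of the threshold, and 7 of the 10 members did so in every alternative that tested them. KLF5 turned to -0.072 after rescaling to TPM, where the median of all genes moved to -0.12. KLF9 turned to 0.024 without CTR replicate 1, 0.011 without CTR replicate 3 and 0.049 without miR-8485 replicate 1, and ranged from -0.081 to 0.049 when each library was left out in turn. KLF13 passed the threshold in 5 of 16 alternatives, and the cause was not tested. With a filter at 5 FPKM, which leaves 6878 genes, 2303 genes were called higher and 2417 lower, and 0 members were higher because KLF15 lies below that filter. Leaving out each library in turn gave 3124 to 3561 genes called higher and 3382 to 3663 lower, 1 to 1 members higher and 6 to 7 lower, and 11 to 13 of the other family and pathway genes higher and 29 to 32 lower. The count of members with a seed site was 4 with the longest and with the canonical 3′ UTR.

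The deviations of same-numbered libraries from their group means had correlations of 0.07, 0.03 and -0.06. Other pairs of libraries between the groups had -0.09 to 0.06, and not every library correlated best with its own number. With so few libraries, these values cannot decide whether same-numbered libraries were paired. With the replicate number as a block, 3634 genes were called higher and 3754 lower, and 1 member was higher and 7 were lower. Among the other family and pathway genes, the block ended the call of SMURF1 and added those of MAPK7 and TGFBR2. The low levels of KLF15, KLF11 and KLF9, 34 to 286 fragments per library, limit the precision of their values.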
